A study of Mus musculus with 32 samples.

Results

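The genes described here are 9 genes of the methionine cycle and of the pathway that leads from it to cysteine: Mat2a, Mat2b, Ahcy, Ahcyl1, Mtr, Mtrr, Cbs, Cth and Amd1. They were found by matching the Ensembl identifiers of a table of 55938 genes to gene symbols, and all 9 were present. Mat2a was chosen because of its lower level in astrocyte libraries 3 weeks after fracture, and the other 8 were chosen by pathway. The 3 week values of Mat2a in those libraries are therefore given as a description, with no test. The libraries came from homogenised lumbar spinal cord of mice of the line that the labels write as Aldhl1l-CreER;Rpl22-HA. In these mice a Cre recombinase that is active after tamoxifen, driven by the astrocyte gene Aldh1l1, switches on an HA tag on the ribosomal protein Rpl22. An anti-HA pull-down then recovers the RNA that tagged ribosomes carry (Trap libraries), and the RNA of the unfractionated homogenate is called Input. All groups, the uninjured ones included, carried both alleles. The injured mice had a fracture 3, 5 or 7 weeks earlier, which serves as a model of Complex Regional Pain Syndrome, and the control mice had no fracture. Each combination of sex and injury state had 3 Trap libraries (24 in all) and 1 Input library (8 in all). Neither the ages of the mice nor the tamoxifen schedule are known here. The labels do not say that each library came from a separate animal, so the p-values measure only the spread between these libraries.

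The methionine cycle makes and recycles S-adenosylmethionine (SAM), the methyl donor of most methyltransferases. Methionine adenosyltransferase, with the catalytic subunit encoded by Mat2a outside the liver, joins methionine and ATP to SAM. Each methyl transfer leaves S-adenosylhomocysteine, which Ahcy splits into adenosine and homocysteine. Homocysteine is either methylated back to methionine by the cobalamin enzyme encoded by Mtr, or turned into cystathionine by Cbs and then into cysteine by Cth, the route called transsulfuration. Amd1 takes SAM out of the cycle towards the polyamines. In human cells the amount of MAT2A RNA follows the supply of SAM: the methyltransferase METTL16 binds hairpins in the 3′ UTR of that RNA, and their methylation when SAM is plentiful shortens the life of the RNA, while unmethylated hairpins favour removal of a retained intron.

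Mat2a (ENSMUSG00000053907.10) lies on the minus strand of chromosome 6 at 72432799 to 72439558 (GRCm38, GENCODE M21). Its transcript ENSMUST00000059472.9 is 2804 bases long, of which 1494 bases are the 3′ UTR. Because the known control acts through hairpins with the 9-base motif TACAGAGAA or TACAGAAAA, the sense strand of the transcript was searched for both, written in DNA letters. The motif occurred 6 times, each time in the 3′ UTR. The sites are shown here 5′ to 3′ with 10 bases on either side, in lower case with the motif in capitals.
Mat2a site 1, chr6:72434235-72434263: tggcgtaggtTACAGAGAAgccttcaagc
Mat2a site 2, chr6:72433451-72433479: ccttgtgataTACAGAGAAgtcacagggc
Mat2a site 3, chr6:72433272-72433300: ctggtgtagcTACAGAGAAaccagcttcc
Mat2a site 4, chr6:72433157-72433185: atggcgtaagTACAGAGAAgccatcacct
Mat2a site 5, chr6:72433046-72433074: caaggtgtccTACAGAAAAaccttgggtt
Mat2a site 6, chr6:72432938-72432966: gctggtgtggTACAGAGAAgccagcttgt
All 6 are on the minus strand. TACAGAGAA occurred 5 times and TACAGAAAA 1 time. Site 1 began at base 40 of the 3′ UTR and the other 5 began between bases 824 and 1337. Folded alone with RNAfold, each window of 29 bases formed 5 to 9 base pairs, with a predicted free energy between -4.1 and -10.6 kcal/mol. In sites 2, 4, 5 and 6 all 9 motif bases were unpaired in that fold. Of 7482 other genes with a 3′ UTR of at least the same length, 305 (4.08%) had the motif in its first 1494 bases, 6 had it 2 or more times and 0 had it as often as Mat2a. None of the other 8 genes had it in the longest annotated 3′ UTR. These matches describe the letters of the transcript and do not show that a site is bound or methylated in these mice.

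The table lists Mat2a on 2 rows. A second identifier, ENSMUSG00000104463.2, has no symbol, is not in GENCODE M21 and holds the same value as Mat2a in all 32 libraries, so the reads were split evenly between 2 copies. The reads of Mat2a are therefore the sum of both rows, and a level given here as CPM (counts scaled to a common library size) is that of 1 row, except where it is given per length. Folds are the same for both rows. Gm4737, a near copy of Ahcy, held 1.195% of the counts of the pair, and Amd2, a near copy of Amd1, held 1.744%, so reads between these are also uncertain.

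The other 8 genes are also protein coding and on the minus strand in GRCm38 (GENCODE M21). Ahcy (ENSMUSG00000027597.15) lies on chromosome 2 at 155059310 to 155074497, and Ahcyl1 (ENSMUSG00000027893.14) on chromosome 3 at 107663118 to 107696560. Cth (ENSMUSG00000028179.12) is also on chromosome 3, at 157894248 to 157925077, and Cbs (ENSMUSG00000024039.15) is on chromosome 17 at 31608894 to 31637238. Mtr (ENSMUSG00000021311.9) and Mtrr (ENSMUSG00000034617.7) lie on chromosome 13 at 12182712 to 12258113 and at 68560780 to 68582149. Mat2b (ENSMUSG00000042032.13) is on chromosome 11 at 40679314 to 40695203 and Amd1 (ENSMUSG00000075232.6) on chromosome 10 at 40287458 to 40302186.

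The 24 Trap libraries held 17124034 to 23189228 estimated counts and the 8 Input libraries 17981133 to 22907909. The Trap libraries carried the markers of their label: all 12 astrocyte markers were higher in Trap than in Input, with summed levels of 55012 to 74456 CPM in Trap and 8361 to 8924 CPM in Input. All 10 neuron, 10 microglia and 8 endothelial markers and 9 of 10 oligodendrocyte markers were lower in Trap. No marker was at 0: the neuron markers summed to 285 to 896 CPM in Trap and 6662 to 7832 CPM in Input, and those of oligodendrocytes to 2428 to 5607 CPM in Trap and 15033 to 18042 CPM in Input. The 7 genes of blood cells were each called higher in Trap, summing to 361 to 2485 CPM, against 191 to 323 CPM in Input. Of the Trap libraries 2 stood apart from the rest in earlier results of these data, female 3 weeks replicate 3 and male 7 weeks replicate 2; the 3 week values of the 9 genes are also given without them. In bulk samples like these, fewer cells of a type and less RNA per cell cannot be told apart.

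Ahcyl1, which encodes an AHCY-like protein that regulates calcium release and ion transport and has no known hydrolase activity, had the highest level of the 9 genes for its length. In CPM per kb of merged exons it averaged 395 ± 32.4 in Trap (SD, n = 24), and its range did not overlap that of any other member. Cbs followed at 52.0 ± 7.37 CPM per kb, Mat2a with both rows summed at 41.1 ± 8.72 and Amd1 at 31.7 ± 3.75. Merged exons join all annotated transcripts of a gene, 4486 bases for Mat2a and 7485 for Cbs. The Mat2a transcript searched above has 2804 bases, so the order of close genes depends on the length used. Cbs and Mat2a overlapped, Cbs being higher in 20 of 24 libraries, and Mat2a was above Amd1 in 22 of 24. Then came Ahcy at 14.9 ± 1.05 CPM per kb, Mat2b at 10.2 ± 0.712 and Cth at 8.94 ± 1.16, of which Mat2b and Cth overlapped. The pair that remethylates homocysteine was lowest, Mtrr at 2.02 ± 0.199 and Mtr at 1.60 ± 0.322 CPM per kb, with overlapping ranges. In Input the order was different below Ahcyl1 (83.7 ± 3.46 CPM per kb, n = 8): Amd1 at 33.7 ± 2.55 and Mat2a at 30.1 ± 5.33, which overlapped, stood above Ahcy, Mat2b, Cbs at 5.20 ± 0.419, Mtrr and Mtr, and Cth was lowest at 0.850 ± 0.174. The ranges of Mtr and Cth overlapped in Input, with Mtr higher in 8 of 8 libraries.

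**Figure D1:**
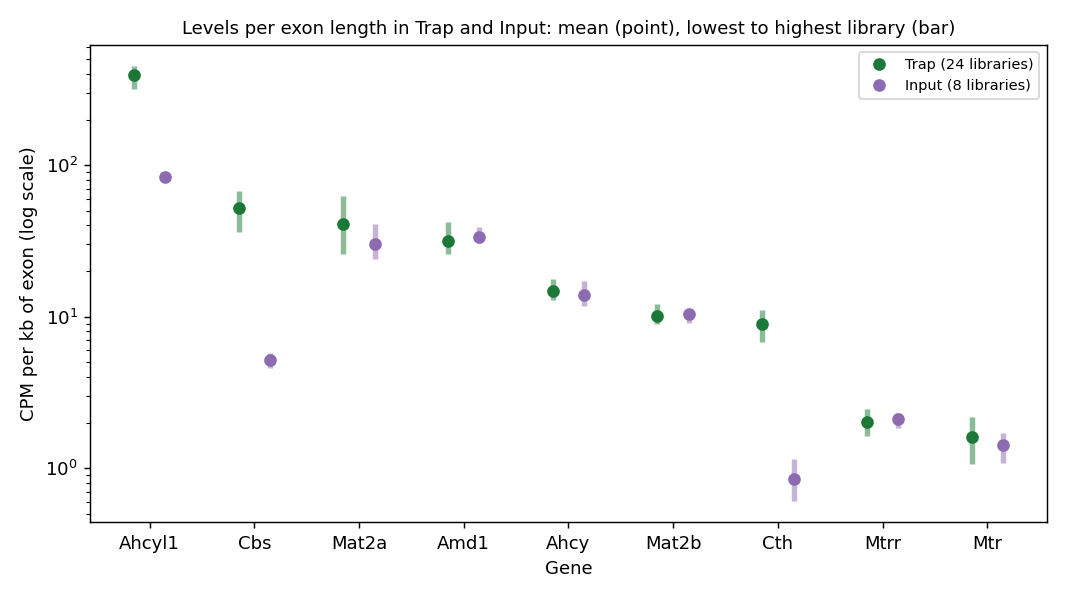
Level of each of the 9 genes in CPM per kb of merged exons on a log axis, in Trap (green, left of each pair, 24 libraries) and in Input (purple, right, 8 libraries); points are means and bars run from the lowest to the highest library, and Mat2a is the sum of its 2 rows. Cbs, Cth and Ahcyl1 stand well above Input in Trap, while Amd1, Ahcy, Mat2b, Mtrr and Mtr lie close together in both.

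Both enzymes of transsulfuration were far higher in the astrocyte libraries than in whole tissue. Cbs, which condenses homocysteine with serine, had 269 to 506 CPM in the 24 Trap libraries with a median of 394, against 34.4 to 43.0 CPM in the 8 Input libraries with a median of 39.8, and the groups did not overlap. Its log2 fold of Trap over Input was 3.32 ± 0.09 (SE of the fit; adjusted p = 1.6e-27, edgeR quasi-likelihood test). Cth, which cleaves cystathionine to cysteine, had 18.9 to 31.0 CPM in Trap with a median of 24.4, against 1.71 to 3.20 CPM in Input with a median of 2.29, again without overlap, and a log2 fold of 3.40 ± 0.09 (adjusted p = 3.35e-28). In Input, Cth rested on 48 to 89 counts in a library, so its Input level is the least precise here. Cbs and Cth were higher in Trap than in the Input library of their sex and state in all 8 combinations, by 3.18 to 3.53 and by 3.03 to 3.61 on the log2 scale.

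Of the other 7 members, Ahcyl1 and Mat2a were called higher in Trap and 5 were not called. Ahcyl1 had 2136 to 3006 CPM in Trap, against 525 to 587 CPM in Input, a log2 fold of 2.24 ± 0.05 (adjusted p = 6.6e-31, edgeR). Mat2a had 58.0 to 141 CPM in Trap with a median of 91.1, against 54.1 to 91.5 CPM in Input with a median of 63.4. The Mat2a ranges overlapped across injury states, but within each of the 8 combinations of sex and state all 3 Trap libraries were above the Input library, by 0.30 to 0.65 on the log2 scale for the mean. Its log2 fold was 0.44 ± 0.07 (adjusted p = 8.86e-07, edgeR). The 5 other genes did not pass the test: Ahcy at 0.10 ± 0.05 (adjusted p = 0.0753), Mtr at 0.16 ± 0.10, Mtrr, the reductase that reactivates the Mtr enzyme, at -0.07 ± 0.06, Amd1 at -0.09 ± 0.06 and Mat2b, the regulatory subunit of methionine adenosyltransferase, at -0.02 ± 0.05. In this comparison 88.1% of the 15913 genes tested were called in either direction and 44.4% were called higher and 43.7% lower, against 4 of the 9 members called higher and 0 lower. The median member had a log2 fold of 0.16, against 0.02 for all genes. With DESeq2's size factors the median of all genes moved by about 0.1, from 0.02 to -0.08, and Mat2b (-0.12), Mtrr (-0.17) and Amd1 (-0.19) were then called lower in Trap, while the 4 higher calls remained.

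The pathway around the 9 genes was counted from 10 lists of 85 genes. In the feeding branches, 2 of 5 tested genes of betaine and folate supply were called higher in Trap and 2 lower: Aldh7a1, which oxidises betaine aldehyde among other substrates (log2 fold 2.98 ± 0.05), and Sardh, sarcosine dehydrogenase (3.20 ± 0.06), were higher (edgeR). Of 10 genes of cobalamin handling, 9 were called higher in Trap and 1 lower, with the lysosomal transporter gene Abcd4 (2.22 ± 0.06), the methylmalonyl-CoA mutase gene Mut (2.40 ± 0.07) and the cobalamin carrier gene Tcn2 (2.01 ± 0.07) having the smallest p. Of 6 carriers of methionine and SAM, 3 were called higher and 2 lower: Slc3a2 and Slc7a5, the subunits of a large neutral amino acid exchanger, were higher (2.79 ± 0.07 and 1.78 ± 0.06), and Slc38a2, a sodium-coupled amino acid carrier, was lower at -2.93 ± 0.09. The near relatives Ahcyl2 (1.31 ± 0.06) and Mat1a (1.22 ± 0.43) were higher in Trap, but Mat1a, the liver form of the catalytic subunit, had only 0.506 ± 0.369 CPM in Trap and 0.212 ± 0.174 CPM in Input.

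On the side of SAM use, 5 of 7 tested small-molecule methyltransferases were called higher in Trap and 1 lower, among them Tpmt (2.66 ± 0.08) and Hnmt, which inactivates histamine (2.30 ± 0.07). Of 13 tested methyltransferases of DNA, RNA and protein, 4 were called higher and 7 lower, among them Pcmt1 (-0.86 ± 0.04), Dnmt1 (-1.10 ± 0.07) and Mettl3 (0.98 ± 0.07). Of 11 polyamine genes, 6 were called higher and 3 lower: the synthesis gene Odc1 (1.77 ± 0.06) and the spermine oxidase gene Smox (2.73 ± 0.07) were higher, and the spermine synthase gene Sms was lower at -2.50 ± 0.07. In methionine salvage 4 of 6 genes were called higher and 2 lower, with Apip (1.88 ± 0.09) and Adi1 (0.75 ± 0.05) higher and Got1 lower (-1.91 ± 0.04). Of 12 genes of cysteine use, 9 were called higher and 3 lower, with the thiosulfate sulfurtransferase gene Tst higher (3.38 ± 0.09) and Got2 (-2.60 ± 0.06) and Ado (-1.31 ± 0.04) lower. Of 6 genes tied to the control of Mat2a RNA or to m6A, the mark that METTL16 sets, 4 were called higher and 2 lower: Mettl16 averaged 53.2 ± 4.08 CPM in Trap (SD, n = 24) and 31.7 ± 3.03 CPM in Input (SD, n = 8; 0.75 ± 0.05, edgeR), the m6A eraser gene Alkbh5 had a log2 fold of 0.54 ± 0.06 and the cleavage factor gene Nudt21 one of 0.49 ± 0.05. These counts stand beside the 88.1% of all genes that were called.

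In the Trap libraries Mat2a was lowest 3 weeks after fracture and higher at each later time, without reaching the uninjured mean. In uninjured males it had 106, 126 and 87.2 CPM, and in uninjured females 141, 105 and 116 CPM. At 3 weeks the males had 58.0, 69.1 and 72.4 CPM and the females 70.7, 74.0 and 90.9 CPM. Within each sex all 3 libraries at 3 weeks lay below all 3 uninjured ones, while across the sexes the highest 3 week library, a female one, was just above the lowest uninjured one, a male one. At 5 weeks the males had 91.4, 96.1 and 82.2 CPM and the females 87.5, 93.9 and 71.9 CPM. At 7 weeks the males had 102, 103 and 80.4 CPM and the females 80.1, 94.2 and 111 CPM. The 5 week females lay wholly below the uninjured females, and all other groups at 5 and 7 weeks overlapped the uninjured libraries of their sex. The means over both sexes were 113 ± 18.8 CPM in uninjured mice, 72.5 ± 10.6 at 3 weeks, 87.2 ± 8.94 at 5 weeks and 95.2 ± 12.8 at 7 weeks (SD, n = 6 each).

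**Figure D2:**
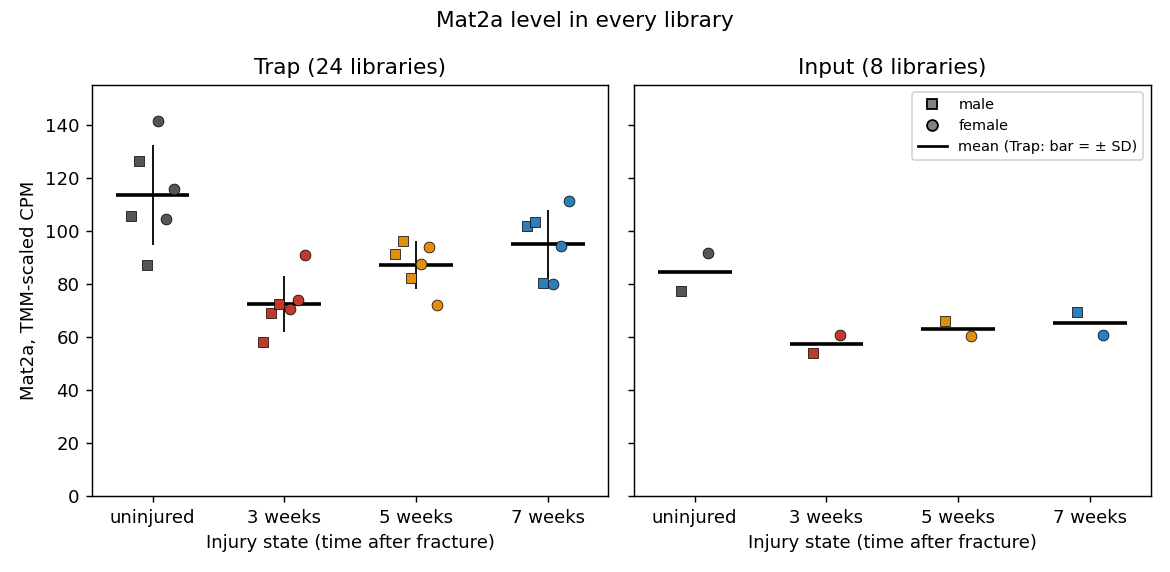
Mat2a level in TMM-scaled CPM (1 of its 2 equal rows) in every library, by injury state in time order, with Trap on the left (24 libraries) and Input on the right (8 libraries). Squares are males, circles are females, horizontal lines are means and vertical bars are ± SD over the 6 Trap libraries of a state; the 3 week libraries are the lowest in both panels on average, at 72.5 CPM in Trap and 57.4 CPM in Input.

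The fitted log2 fold of Mat2a in Trap at 3 weeks over uninjured was -0.64 ± 0.11 (SE of the edgeR fit), the value for which the gene was chosen. It was -0.68 ± 0.15 within males and -0.61 ± 0.15 within females, contrasts in which 0% and 0.039% of all genes were called in either direction. With both libraries that stood apart left out it was -0.70, and with the level of other cell types' markers relative to astrocyte markers as a covariate it was -0.65. In this contrast 0.078% of the 15380 genes tested were called lower, 12 genes, of which Mat2a is the 1 member; its identical second row is also among the 12, and with the rows summed there were 11. That count was 2 without female uninjured replicate 1, without male 3 weeks replicate 1 or without male uninjured replicate 2, and Mat2a was not called in any of these 3. It was 5 to 7 without female 3 weeks replicate 2, male uninjured replicate 1 or male 3 weeks replicate 2, and 23 or 24 without replicate 3 of the female 3 week or uninjured libraries. It was 41 without both libraries that stood apart and 79 by DESeq2. Mat2a was chosen on this contrast in these libraries, so its own calls here are no test of it. The 5 week libraries were higher than the 3 week ones by 0.27 ± 0.11 and the 7 week ones by 0.39 ± 0.11 for Mat2a, contrasts that called 0.013% and 0.0195% of all genes and that share the 3 week libraries, so these too are a description. The other 8 members had log2 folds between -0.23 and 0.11 at 3 weeks, given here also with no test because the pathway was chosen with this contrast in view.

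Cth and Ahcyl1 had the most negative of these values. Cth had 18.9, 27.0 and 25.2 CPM at 3 weeks in males and 20.0, 21.8 and 20.2 CPM in females, against 23.8, 22.8 and 31.0 CPM in uninjured males and 30.3, 24.2 and 23.9 CPM in uninjured females. The male libraries overlapped and the female ones did not, and the log2 fold was -0.23 ± 0.09. Ahcyl1 averaged 2444 ± 178 CPM at 3 weeks and 2787 ± 134 CPM in uninjured mice (SD, n = 6 each), with a log2 fold of -0.19 ± 0.06; again the female libraries at 3 weeks, at most 2508 CPM, lay below all uninjured female ones, at least 2813 CPM, while the males overlapped. Mtr had a log2 fold of -0.17 ± 0.17, Amd1 of -0.16 ± 0.10, Cbs of -0.05 ± 0.12, Mat2b of -0.03 ± 0.07, Mtrr of 0.02 ± 0.09 and Ahcy of 0.11 ± 0.07. Without both libraries that stood apart these were -0.22 for Cth, -0.16 for Ahcyl1, -0.09 for Mtr, -0.17 for Amd1, 0.03 for Cbs, -0.06 for Mat2b, -0.03 for Mtrr and 0.11 for Ahcy, so that Cbs and Mtrr changed sign and Mtr moved by over 1.5 times. Ahcy in females was 42.6 to 44.3 CPM at 3 weeks and 38.4 to 41.6 CPM in uninjured mice, which did not overlap. Such gaps also occurred later, for Ahcyl1 in females at 5 and 7 weeks and for Mtrr in males at 7 weeks. The share of all genes with such a gap was not counted, so none of these gaps, that of Mat2a included, is a test. Mat2b, whose protein binds that of Mat2a, had 45.8 to 52.5 CPM at 3 weeks and 44.6 to 54.1 CPM in uninjured mice, which overlapped.

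At 5 and 7 weeks no member was called against the uninjured Trap libraries, which are the same libraries as in the 3 week contrast. Mat2a had a log2 fold of -0.37 ± 0.11 at 5 weeks (adjusted p = 1.00, edgeR) and of -0.25 ± 0.11 at 7 weeks (adjusted p = 1.00, edgeR). Those values were -0.24 ± 0.15 in males and -0.51 ± 0.15 in females at 5 weeks, and -0.17 ± 0.15 in males and -0.33 ± 0.15 in females at 7 weeks. The other 8 members lay between -0.08 and 0.04 at 5 weeks and between -0.12 and 0.06 at 7 weeks. By edgeR 0 of 15380 genes were called at either time (0%), and DESeq2 called 0 of the 9 members at either time, with 1 gene of all called at 5 weeks and 0 at 7 weeks. At an unadjusted p under 0.05 Mat2a was the 1 member at both times, beside 425 of all genes at 5 weeks and 438 at 7 weeks. The uninjured libraries took part in the choice of Mat2a, so its values against them at 5 and 7 weeks depend on that choice. Those values are a description and no test of Mat2a. Between 7 and 5 weeks, which share no library with the contrast that chose Mat2a, its log2 fold was 0.13 ± 0.11 (adjusted p = 1.00, edgeR), and 0 of the 9 members and 0% of all genes were called. In that comparison 0 members and 356 of all genes had an unadjusted p under 0.05, and DESeq2 called 0 members and 2 of all genes.

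**Figure D3:**
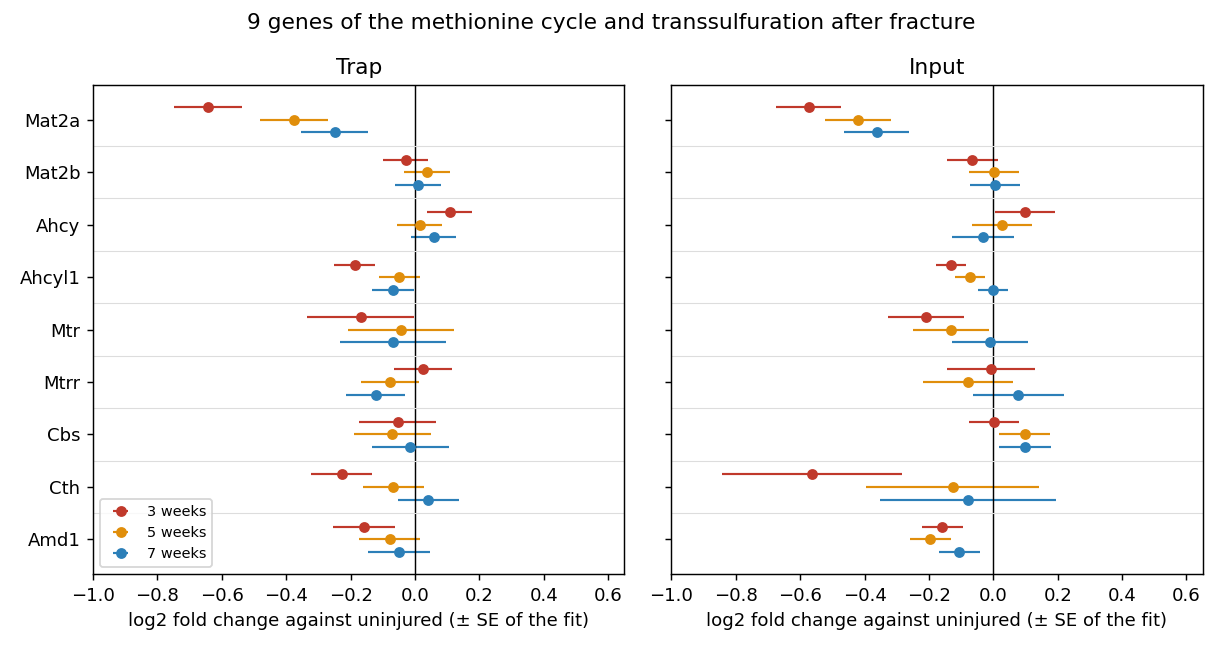
Log2 fold change of the 9 genes at 3 weeks (red), 5 weeks (orange) and 7 weeks (blue) after fracture over uninjured libraries, in Trap on the left and in Input on the right; points are the values of the edgeR fits and bars are ± 1 SE. Mat2a lies between -0.64 and -0.25 at every time in both kinds of library, and of the others Cth in Input at 3 weeks (-0.56 ± 0.28) lies farthest from 0 and has the widest bar.

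The Input libraries were not used to choose Mat2a, though its lower level there was known from earlier results of these data. Each is numbered 1, and its column header shares a stem with the Trap library numbered 1 of its sex and state. The labels do not say whether such a pair shares a homogenate, so the Input values may not be independent of that choice. Mat2a had 54.1 CPM in the male and 60.7 CPM in the female Input library at 3 weeks, against 77.3 CPM in the uninjured male and 91.5 CPM in the uninjured female. It had 66.0 and 60.3 CPM at 5 weeks and 69.4 and 60.8 CPM at 7 weeks in the male and the female library, so each injured library was below both uninjured ones. Its log2 fold at 3 weeks was -0.57 ± 0.10 (adjusted p = 0.0250, edgeR). Among 16803 genes 0.649% were called lower, against 1 of the 9 members. The fit has 3 residual degrees of freedom, and 4 changes ended the call. It was lost when the 2 rows of Mat2a were summed before the fit (fold -0.57, adjusted p = 0.0609), when all 32 libraries shared 1 fit (-0.56, adjusted p = 1.00), without the uninjured female (-0.42, adjusted p = 0.241) and without the 3 week male (-0.48, adjusted p = 0.136). At 5 weeks the log2 fold was -0.42 ± 0.10 (adjusted p = 0.269) and at 7 weeks -0.36 ± 0.10 (adjusted p = 0.466), which did not pass. With 1 Input library left out, the 5 week fold of Mat2a was -0.27 without the uninjured female (adjusted p = 0.819) and -0.56 without the uninjured male (adjusted p = 0.0411, edgeR), the 1 such fit with a call. At 7 weeks it was -0.21 without the uninjured female or without the 7 week female and -0.52 without the 7 week male, and no such fit called it.

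Of the other members in Input at 3 weeks, Amd1 had a log2 fold of -0.16 ± 0.06, Ahcyl1 of -0.13 ± 0.05, Mtr of -0.21 ± 0.12 and Cth of -0.56 ± 0.28, and the remaining 4 lay between -0.06 and 0.10; none of the 8 was called. The Cth value ran from -0.16 without the uninjured female to -0.91 without the uninjured male, and that of Amd1 from -0.08 to -0.24 in the same 2 fits. Amd1, the decarboxylase that commits SAM to polyamines, had 111 and 122 CPM at 3 weeks, 109 and 116 CPM at 5 weeks and 119 CPM in both libraries at 7 weeks, with the male given first each time. The uninjured Input libraries had 119 CPM of Amd1 in the male and 139 CPM in the female, so the 3 week and the uninjured values overlapped. Its log2 fold was -0.20 ± 0.06 at 5 weeks (adjusted p = 0.382) and -0.11 ± 0.06 at 7 weeks (adjusted p = 0.941, edgeR). At 5 and 7 weeks 0 of the 9 members were called by edgeR or by DESeq2, beside 0.107% and 0.214% of all genes called in either direction, and 2 and 1 members had an unadjusted p under 0.05, beside 1427 and 986 of all genes. Other cell types' markers moved in the same libraries: at 3 weeks all 10 microglia markers had positive log2 folds, 1 of them called, and their sum was 341 to 385 CPM at 3 weeks and 271 to 339 CPM in uninjured Input. The oligodendrocyte markers summed to 15033 to 15858 CPM at 3 weeks and 16969 to 18042 CPM in uninjured Input. Among all genes 0.649% were called lower and 1.08% in either direction, against 3 of the 12 astrocyte markers called lower. Astrocyte markers summed to 8512 to 8786 CPM at 3 weeks and 8870 to 8924 CPM in uninjured Input. Their log2 folds were positive in 6 and negative in 6, with a median of -0.02, against -0.01 for all genes. The part of these shifts in the Mat2a value was not tested.

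In the Trap libraries the summed levels of every marker list overlapped between 3 weeks and uninjured. Microglia markers had median sums of 61.0 CPM in uninjured mice, 57.4 at 3 weeks, 59.2 at 5 weeks and 60.6 at 7 weeks, the same order over time as Mat2a, within ranges of 55.2 to 73.3 CPM at 3 weeks and 56.1 to 72.7 CPM in uninjured mice. Gene by gene that order was not kept. Their log2 folds over uninjured were positive in 6 of 10 at 3 weeks (median 0.09). At 5 weeks 2 of 10 were positive (-0.20) and at 7 weeks 7 of 10 (0.09). Neuron markers had a median of 443 CPM at 3 weeks (285 to 896) and 499 CPM in uninjured mice (370 to 591), and oligodendrocyte markers one of 3637 CPM at 3 weeks (2536 to 4182) and 4071 CPM in uninjured mice (2428 to 5289). At 3 weeks 6 of 10 neuron markers had positive log2 folds (median 0.08), and 3 of 10 oligodendrocyte markers did (-0.07). Endothelial markers summed to 5.03 to 12.8 CPM at 3 weeks and 6.05 to 10.2 CPM in uninjured mice. Their log2 folds over uninjured were positive in 7 of 8 at 3 weeks (median 0.30), 8 of 8 at 5 weeks (0.53) and 7 of 8 at 7 weeks (0.24), with 0 called. Blood cell genes summed to 361 to 1791 CPM at 3 weeks and 848 to 2485 CPM in uninjured mice, and were negative in 5 of 7 at 3 weeks (median -0.25), 4 of 7 at 5 weeks (-0.03) and 7 of 7 at 7 weeks (-0.26), with 0 called. Astrocyte markers summed to 55012 to 73461 CPM at 3 weeks and 66340 to 74456 CPM in uninjured mice. Beside 0.078% of all genes, 1 of the 12 astrocyte markers was called lower. Their log2 folds at 3 weeks were positive in 3 of 12 (median -0.09). The part of these levels in the Mat2a value was not tested beyond the covariate fit given with its fold.

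No member was called between males and females. Mat2a had a log2 fold of males over females of -0.08 ± 0.07 across the 4 states (adjusted p = 0.740, edgeR), and the 9 members lay between -0.10 and 0.10. Here 0 of 9 members were called by edgeR or DESeq2, 0 had an unadjusted p under 0.05, and 0.195% of all genes were called. The effect of fracture at 3 weeks on Mat2a differed between males and females by -0.07 ± 0.21 on the log2 scale (adjusted p = 1.00, edgeR), so at this precision a sex difference was not detectable. Ahcyl1 had -0.07 ± 0.09 in males and -0.30 ± 0.09 in females at 3 weeks, and the difference of 0.23 ± 0.13 did not pass (adjusted p = 1.00, edgeR). For that difference 0% of all genes and 0 of 9 members were called, DESeq2 called 0 members and 1 of all genes, and 0 members and 398 of all genes had an unadjusted p under 0.05.

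After fracture the surrounding pathway gave almost no calls. Of 79 genes of the 10 lists that were tested in Trap, 0 were called by edgeR at 3, 5 or 7 weeks, beside 0.111%, 0% and 0% of all genes in either direction. In Input 1 of 79 was called at 3 weeks and 0 at 5 and 7 weeks, beside 1.08%, 0.107% and 0.214% of all genes. The 1 gene was Azin1, an inhibitor of antizymes that keeps ornithine decarboxylase active, at 111 ± 24.4 CPM at 3 weeks and 141 ± 42.1 CPM in uninjured Input (SD, n = 2 each). Its log2 fold, fitted with sex as a term, was -0.35 ± 0.06 (adjusted p = 0.00744, edgeR). The Azin1 call was lost without the uninjured female (-0.27, adjusted p = 0.323), the 3 week female (-0.33, adjusted p = 0.0790) or the 3 week male (-0.37, adjusted p = 0.0578), and with all 32 libraries in 1 fit (-0.35, adjusted p = 1). Of the 6 genes tied to the control of Mat2a RNA or to m6A, 5 had negative log2 folds at 3 weeks in Trap, with a median of -0.06, against 0.00 for all genes, and 5 in Input, with a median of -0.11, against -0.01 for all genes; 0 were called in either.

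The members varied to different degrees. At 3 weeks 7 of 9 had negative log2 folds in Trap (median -0.16, against 0.00 for all genes) and 7 of 9 in Input (median -0.13, against -0.01 for all genes). Mat2a, chosen for its lower level in Trap, is among the 7 in both. Of all genes 50.8% had positive log2 folds in Trap and 48.3% in Input. Over the 24 Trap libraries the SD of Mat2a was 21.2% of its mean, that of Mtr 20.2%, Cbs 14.2%, Cth 13.0%, Amd1 11.8%, Mtrr 9.83%, Ahcyl1 8.19%, Ahcy 7.06% and Mat2b 6.99%. The value of Mat2a includes the 3 week difference for which it was chosen. Within an injury state its SD was 10.3% to 16.6% of the mean. That of Mtr was 16.6% to 29.5% and that of Cbs 9.18% to 19.9%. On the log2 CPM scale Mat2a had a Pearson correlation of 0.42 with Amd1, 0.39 with Cth and 0.30 with Ahcyl1, and between 0.00 and 0.13 with the other 5, over 24 libraries that share depth scaling and injury states. These are descriptions of the libraries, with no test.

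Among 12158 genes with a mean of at least 1 CPM, the 5 whose log2 CPM followed Mat2a most closely over the 24 Trap libraries were Mthfd2 (Pearson r = 0.89), Smim3 (0.86), St3gal4 (0.85), Tsc22d1 (0.84) and Stk32a (0.84). Mthfd2 encodes a mitochondrial enzyme of folate-bound one-carbon units, St3gal4 a sialyltransferase, Tsc22d1 a transcriptional regulator and Stk32a a protein kinase. Mthfd2 averaged 61.2 ± 26.2 CPM in uninjured Trap libraries, 32.7 ± 13.0 at 3 weeks, 40.2 ± 10.2 at 5 weeks and 45.1 ± 15.9 at 7 weeks (SD, n = 6 each). Its log2 folds over uninjured were -0.87, -0.58 and -0.43 at 3, 5 and 7 weeks. The log2 folds of the other 4 at 3 weeks lay between -0.70 for Smim3 and -0.40 for St3gal4. After the mean of each sex and injury state was taken out, r with Mat2a was 0.90 for Mthfd2 and between 0.71 and 0.81 for the other 4, over the same 24 libraries. These genes were chosen by their likeness to Mat2a, and none of these values is a test.

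**Figure D4:**
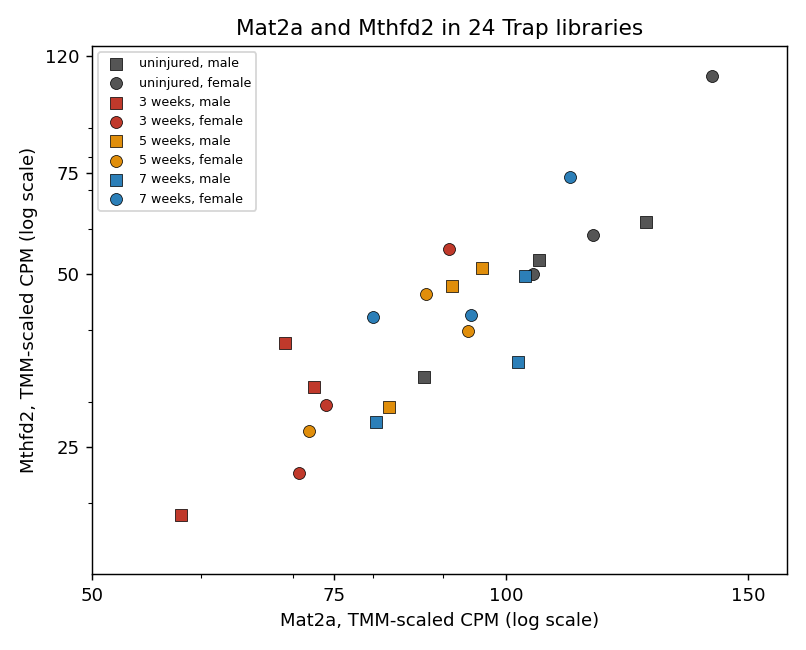
Mthfd2 (vertical axis) against Mat2a (horizontal axis), both in TMM-scaled CPM on log axes, in the 24 Trap libraries; squares are males, circles are females and colours are injury states. Of the 6 libraries at 3 weeks 5 lie at the lower left, 1 female one has 90.9 CPM of Mat2a and 55.4 CPM of Mthfd2, and an uninjured female library with 141 CPM of Mat2a and 111 CPM of Mthfd2 is at the upper right.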

How the data were processed

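The authors deposited 1 table of RSEM estimated counts per gene, also called expected counts, for all 32 libraries; the tools named in the submitters' processing notes are FastQC, Trim Galore, STAR and RSEM, with the build GRCm38. Tool versions and the annotation are not given in the sources used. Per library 6.207% to 8.527% of values were not whole, and the values were rounded. RSEM divides reads among similar genes, which splits Mat2a over 2 rows. Symbols were matched for 55141 identifiers, and 797 had none.

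Tests used the quasi-likelihood fit of edgeR 4.0.16 under R 4.3.3, robust and 2-sided, after filterByExpr and TMM, adjusted by Benjamini-Hochberg over all genes tested, with a call at an adjusted p under 0.05. Trap comparisons used 1 fit of 24 libraries with a mean per sex and state (16 residual degrees of freedom). Input comparisons used a fit of 8 libraries with sex as a term. Trap against Input used 32 libraries, adjusted for sex and state. CPM values use TMM scaling over all 32 libraries. Likeness to Mat2a used log2 CPM with a prior count of 2, leaving out predicted gene models. The fits were run on simulated counts with known folds, drawn independently for each library with the same spread for every gene. The simulation held no outlying libraries or sets, so it does not show how far the calls hold in these data. Alternatives were DESeq2 1.42.0 and its size factors, no filter, copies summed, only the groups compared, replicate blocks, a marker covariate and leaving out libraries. Named were all 9 members, up to 3 called genes with the smallest p of each list, and the 5 genes most like Mat2a. Of the genes this rule names, 2 are not reported here. Hairpins were folded with RNAfold 2.7.2. The members and lists were chosen with earlier results of these data known. Counting error was not separated from the spread between libraries. It weighs most where counts are few, such as 48 to 89 a library for Cth in Input and 153 to 267 for Mtrr in Trap.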

Additional observations from a re-analysis of the deposited data

Results flagged for a closer look

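Among 36 sets of 6 Trap libraries (9 genes in 4 states), 3 held a library far from the other 5 by Dixon's test, whose critical value lets through about 1 of 20 sets by chance. Ahcy was at 49.5 CPM in male 7 weeks replicate 2, against 38.4 to 42.3 CPM in the other 5 libraries at 7 weeks. Mtr was at 9.10 CPM in female 5 weeks replicate 3, against 13.6 to 15.8 CPM in the other 5 at 5 weeks. Cbs was at 310 CPM (309.8 before rounding) in the same library, against 381 to 405 CPM in the other 5. That library is among the 4 female ones numbered 3, which had 269 to 310 CPM of Cbs across the injury states.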

How the results depend on the processing

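The counts of members called stayed within 1.5 times of those reported except in the following cases. Trap against Input called 7 members in place of 4 with DESeq2's size factors and also 7 with the DESeq2 test; with the replicate block over 8 pairs of Trap and Input it called 5, Mtr being added at 0.30 (adjusted p = 0.0144, edgeR). Ahcy was called higher in Trap without the low-count filter (0.13, adjusted p = 0.0499, edgeR) and in 3 of 8 fits that left out 1 Input library. Input at 3 weeks called 0 in place of 1 with the Mat2a rows summed and 0 with all 32 libraries in 1 fit; leaving out 1 library gave 0 to 1 at 3 weeks and 0 to 1 at 5 weeks. In Trap at 3 weeks, the contrast on which Mat2a was chosen, it passed the threshold in 9 of 12 fits that left out 1 library. That count is a description and no test. The cause was not tested, apart from the fewer libraries of the last.

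Mat2a was negative in every alternative run for 3, 5 and 7 weeks. In Trap this is a description, as the gene was chosen at 3 weeks and the later contrasts share the uninjured libraries. Leaving out 1 library moved the Trap fold of Mat2a between -0.70 and -0.57 at 3 weeks and between -0.43 and -0.30 at 5 weeks. At 7 weeks it ran from -0.31 to -0.17, and in Input at 3 weeks from -0.71 to -0.42. Column headers put the Trap libraries of 1 number and sex under a common prefix, which the labels do not explain, for all but 1 of the 6 sets. Deviations within all 6 sets of 1 number and sex correlated at -0.07 to 0.22 (median 0.06, 36 pairs). Other pairs of 1 sex had a median of -0.03. As not every pair was above 0.1, the numbers were not taken as pairs, and the main Trap fit has no term for them. The 4 female libraries numbered 3 all lay below the other 20 Trap libraries in Cbs, as given below. Whether the libraries of a set share a deviation was not tested further. In Trap at 3 weeks the block called 32 genes lower and 12 higher, and the block within sex, chosen after seeing the data, 50 lower and 27 higher, against 12 lower and 5 higher with neither. Leaving out 1 library gave 2 to 24 genes lower there. With the replicate block the 3 week value was -0.64, and with the block within sex -0.63; the block changed no count of members called in Trap.

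Values near 0 changed sign. In Trap against Input, Mat2b was 0.00428 with no filter. In Input at 3 weeks, Cbs was -0.00963 with DESeq2's size factors and -0.0101 with the DESeq2 test, and Mtrr was 0.00936 with all 32 libraries. With the marker index as covariate Mtr was 0.0253 at 5 weeks and Cbs 0.0461 at 7 weeks in Trap. Without the 2 libraries that stood apart Mat2b was -0.0548 and Mtr 0.00701 at 7 weeks. The sex difference of the 3 week effect on Mat2a was then 0.0471. Leaving out 1 library gave, in Input at 3 weeks, -0.182 to 0.0465 for Mat2b, -0.206 to 0.207 for Mtrr and -0.0511 to 0.0521 for Cbs. It gave, in Trap at 5 weeks, -0.0230 to 0.0450 for Ahcy, -0.0955 to 0.0581 for Mtr, -0.155 to 0.00773 for Cbs, -0.108 to 0.0163 for Cth and -0.149 to 0.0243 for Amd1. At 7 weeks it gave -0.0576 to 0.0478 for Mat2b, -0.000693 to 0.0986 for Ahcy and -0.139 to 0.00948 for Mtr. At that time Cbs ran from -0.0990 to 0.0635 and Amd1 from -0.120 to 0.0540. For the sex difference of the 3 week effect on Mat2a, leaving out 1 library gave -0.189 to 0.0753. Depth limits Cth in Input most, at 48 to 89 counts a library.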

Other observations

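The 4 female Trap libraries numbered 3, 1 at each injury state, had 269 to 310 CPM of Cbs, below all the other 20 Trap libraries, which had 358 to 506 CPM; this set was singled out after its values were seen. The same 4 libraries had the highest marker index, which sets the average log2 level of the markers of other cell types against that of astrocyte markers, at -8.42 to -7.63 against -9.22 to -8.46 in the other 20. Mat2a in these 4 libraries, at 71.9 to 116 CPM, lay within the 58.0 to 141 CPM of the other 20, and so did Cth, at 20.2 to 24.3 CPM against 18.9 to 31.0 CPM.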
